A study of Oncorhynchus mykiss with 24 samples.

Results

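The RNAs described here come from the loci named dazl, buc, celf1 and gra in a trout hybrid, a set of egg RNAs known from fish germ plasm. The rows were chosen by symbol in the table of read counts per gene: the row's own name or, for a LOC identifier, the zebrafish gene that the deposited ortholog table pairs with it. This gave 10 of 32765 rows. Of these, 8 are O. mykiss loci (dazl and LOC110487980 for dazl; buc, LOC110489830 and LOC110535186 for buc; LOC110526187 and LOC110506308 for celf1; and gra). The other 2 are S. fontinalis rows, dazl and LOC129854097, the second of which the ortholog table pairs with both celf1 loci. All 10 passed the filter on low counts and were tested.

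Germ plasm is a deposit of RNA and protein that the egg passes to the future germ cells. In zebrafish it is first gathered in the oocyte's Balbiani body, whose organizer is the Buc protein, and many of its RNAs are then placed at the vegetal pole, under the yolk. dazl encodes an RNA-binding protein that promotes translation in germ cells, and celf1 encodes an RNA-binding protein of the Bruno-like family, whose RNA lies at the vegetal pole of the zebrafish egg. Salmonid fish have an additional genome duplication in their ancestry, so a zebrafish gene can have several trout loci.

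Eggs of O. mykiss (rainbow trout) had received sperm of brook trout, S. fontinalis, and TOMO-seq was used to sequence the animal part (section A) and the vegetal part (section B) of an egg or embryo separately. The stages were 0 hours post fertilization (hpf; called an egg not fertilized in 1 label and just fertilized in another), 1 hpf (called a 1-cell and an early cleavage stage), 1 day post fertilization (dpf; early blastula) and 3 dpf (mid-blastula). Each section had 2 libraries, labelled as biological replicates, at 0 hpf and 3 dpf and 3 at 1 hpf and 1 dpf, and library totals ran from 5011274 to 9986001 counts. All groups start from O. mykiss eggs and the embryos are of 1 cross. No embryo of a cross within 1 species was analysed here. In section A at 3 dpf, S. fontinalis genes took 24.03% and 22.45% of the counts, against 0.927% to 1.085% in each other library. Markers of the egg were present in both sections: 7 of 10 were in the table, summing to 433 to 1127 CPM (library-scaled counts) in the animal section and 1078 to 1374 in the vegetal one. Of other tissues, 1 of 10 ovarian follicle markers was in the table. It gave 0 to 328 CPM animal (median 0.57) and 0 to 3.07 vegetal (median 0.35). For sperm it was 1 of 9 markers (4.39 to 17.9 CPM animal, 3.70 to 22.1 vegetal). For liver and yolk it was 1 of 7 (6.13 to 18.1 and 15.8 to 38.4), and for blood 0 of 10. The part of such cells in the results was not tested.

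A CPM is a share of a library, so less of other RNA and more of this RNA cannot be told apart. Transcript lengths were not used, so levels are compared between sections and stages of 1 locus and not between loci. How reads that match several copies, or both parental genomes, were assigned is not stated, so the split of reads between loci of 1 symbol is uncertain.

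The O. mykiss loci lay on the vegetal side from the egg onward, with 1 exception. In section A against section B, 7 of the 8 O. mykiss loci were lower at 0 hpf, 1 hpf and 1 dpf, and 8 of 8 at 3 dpf, and 0 were higher. Over all 10 rows 7, 9, 9 and 9 were lower. Of the 32502 genes tested over both species, 2.87%, 8.84%, 10.4% and 19.2% were lower at the same stages, and of the O. mykiss genes 3.96%, 11.8%, 13.8% and 27.1%. The loci were chosen with earlier results of these data known, so setting them beside all genes is a description and not a test. The count of 7 rows at 0 hpf dropped to 3 without section A replicate 1 and to 4 without section B replicate 1. The median log2 fold change of the 8 loci was −1.95, −1.95, −2.16 and −2.39, beside −0.02, −0.03, −0.01 and −0.33 over all 22724 O. mykiss genes tested. The last of these medians moved to −0.01 when scaling factors were taken from O. mykiss genes alone. The 8 loci moved with it, from −2.89 (LOC110526187) to −0.81 (LOC110535186) in the main fit to −2.58 to −0.50 for the same loci. The −2.39 is therefore not to be set against −0.01. The exception was LOC110535186, 1 of the 3 buc loci, whose sections were close to each other and whose call at 3 dpf was lost with RLE factors, with factors from O. mykiss genes, with DESeq2 and in a fit of the 3 dpf libraries alone.

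**Figure D1:**
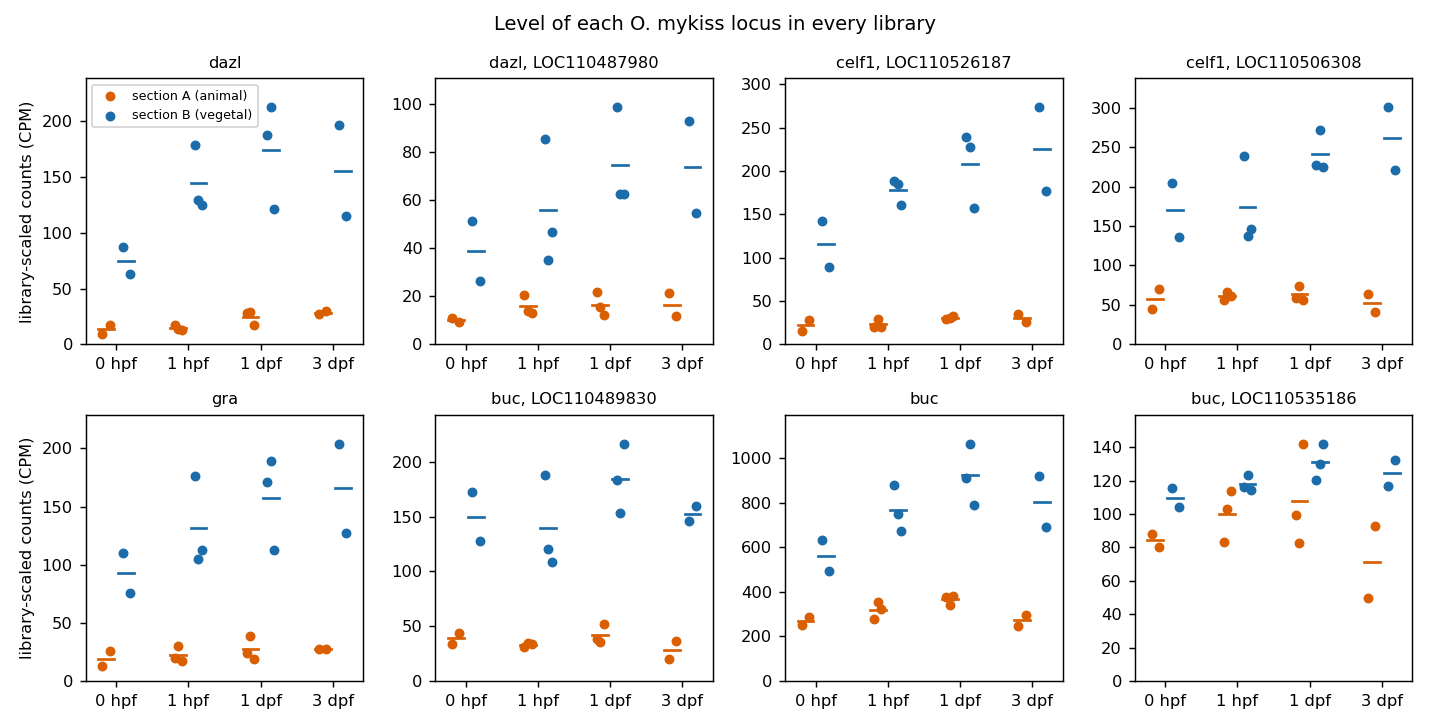
Library-scaled counts (CPM, linear axis from 0, a separate scale per panel) of the 8 O. mykiss loci in each library, by stage; points are single libraries (section A orange, section B blue) and short lines are group means. In 7 panels every section B point lies above every section A point, and in the panel of LOC110535186 the sections meet, with 142 CPM as the highest value in each. The share of all genes with sections apart in this way is not given here.

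Among the dazl loci, the row named dazl had one of the steepest section differences of the set. In section A its level was 9.50 and 17.4 CPM at 0 hpf, 17.7, 13.9 and 12.7 at 1 hpf, 27.6, 29.0 and 17.7 at 1 dpf and 26.9 and 29.8 at 3 dpf. In section B the libraries gave 87.4 and 62.8 CPM at 0 hpf, 179, 130 and 125 at 1 hpf, 188, 213 and 122 at 1 dpf and 197 and 115 at 3 dpf. The lowest section B library thus stood above the highest section A library over all stages. How many of all genes have sections apart in this way is not given here, for dazl or for the loci below. The log2 fold change of A against B was −2.48 ± 0.35 at 0 hpf (SE, adjusted p = 0.000343), −3.29 ± 0.30 at 1 hpf (adjusted p = 4.56e-07), −2.81 ± 0.29 at 1 dpf (adjusted p = 1.85e-06) and −2.46 ± 0.35 at 3 dpf (adjusted p = 2.83e-05), by the quasi-likelihood test of edgeR, adjusted over all genes by Benjamini-Hochberg. As ratios of mean CPM, section B held 5.57, 9.79, 7.03 and 5.49 times the level of section A.

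The duplicate LOC110487980 had the same direction with a smaller difference. It ran from 9.14 to 21.7 CPM (median 13.6) over the 10 section A libraries and from 26.2 to 98.99 CPM (median 58.7) over the 10 section B libraries, with no overlap. Its fold changes were −1.95 ± 0.45, −1.82 ± 0.36, −2.19 ± 0.37 and −2.15 ± 0.45 from 0 hpf to 3 dpf (adjusted p = 0.0154, 0.00131, 0.000255 and 0.000828). The 0 hpf call was lost without section A replicate 1 (−2.08, adjusted p = 0.174), section A replicate 2 (−1.84, adjusted p = 0.165) or section B replicate 1 (−1.39, adjusted p = 0.408).

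The celf1 locus LOC110526187 was lower in section A at each stage. Its section A libraries held 15.3 and 28.4 CPM at 0 hpf, 20.2, 29.0 and 19.8 at 1 hpf, 29.4, 30.7 and 32.3 at 1 dpf and 34.5 and 26.02 at 3 dpf. Its section B libraries held 142 and 88.9 CPM at 0 hpf, 189, 184 and 160.3 at 1 hpf, 239.7, 228 and 157 at 1 dpf and 274 and 177 at 3 dpf. The sections were far apart at each stage, and section A stayed under 35 CPM throughout. The fold changes were −2.40 ± 0.32, −2.95 ± 0.26, −2.76 ± 0.26 and −2.89 ± 0.32 (adjusted p = 0.00016, 4.04e-07, 8.32e-07 and 2.76e-06).

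The other celf1 locus, LOC110506308, was lower in section A by a smaller amount. It ran from 40.5 to 74.3 CPM (median 59.9) in section A and from 136 to 301 CPM (median 223) in section B, without overlap. Its fold changes were −1.57 ± 0.30, −1.51 ± 0.24, −1.93 ± 0.24 and −2.33 ± 0.31 (adjusted p = 0.00356, 0.000201, 1.67e-05 and 1.23e-05). The 0 hpf call was lost without section A replicate 1 (−1.29, adjusted p = 0.151) or section B replicate 1 (−1.25, adjusted p = 0.113).

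gra had 1 locus in the table, and it too was lower in section A at each stage. Section A held 12.6 and 25.4 CPM at 0 hpf, 19.96, 29.6 and 17.1 at 1 hpf, 23.9, 38.5 and 18.9 at 1 dpf and 27.1 and 27.1 at 3 dpf. Section B held 110.1 and 75.6 CPM at 0 hpf, 176, 104 and 113 at 1 hpf, 171, 189 and 112 at 1 dpf and 204 and 128 at 3 dpf. Every section B library was above every section A library. The fold changes were −2.29 ± 0.41, −2.56 ± 0.33, −2.54 ± 0.33 and −2.61 ± 0.41 (adjusted p = 0.00213, 2.42e-05, 2.31e-05 and 7.01e-05), and the 0 hpf call was lost without section A replicate 1 (−1.87, adjusted p = 0.104).

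The 3 buc loci differed among themselves. The row named buc measured 252 and 287 CPM at 0 hpf in section A, 279, 355 and 324 at 1 hpf, 377, 342 and 379 at 1 dpf and 248 and 296 at 3 dpf. In section B it measured 630.5 and 494 CPM at 0 hpf, 878, 747 and 673 at 1 hpf, 912, 1065 and 790.2 at 1 dpf and 918 and 690.4 at 3 dpf. Both sections held many buc counts, and section B held 2.09 to 2.96 times the section A mean. The fold changes were −1.06 ± 0.20, −1.26 ± 0.17, −1.33 ± 0.17 and −1.56 ± 0.21 (adjusted p = 0.00411, 2.92e-05, 1.54e-05 and 1.32e-05). At 0 hpf the call was lost without section A replicate 1 (−0.97, adjusted p = 0.118) or section B replicate 1 (−0.87, adjusted p = 0.110).

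The buc locus LOC110489830 was more vegetal. It held 33.5 and 44.0 CPM at 0 hpf in section A, 30.6, 34.6 and 33.3 at 1 hpf, 38.4, 35.5 and 52.3 at 1 dpf and 19.9 and 36.5 at 3 dpf. In section B it held 172 and 128 CPM at 0 hpf, 188, 121 and 109 at 1 hpf, 183, 154 and 217 at 1 dpf and 146 and 159.6 at 3 dpf. Every section A library was below every section B library. The fold changes were −1.95 ± 0.30, −2.08 ± 0.24, −2.13 ± 0.24 and −2.44 ± 0.31 (adjusted p = 0.00058, 7.93e-06, 6.1e-06 and 8.6e-06).

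The third buc locus, LOC110535186, differed less between the sections, with section B at 1.18 to 1.75 times the section A mean. Section A held 88.1 and 80.4 CPM at 0 hpf, 83.0, 103 and 114 at 1 hpf, 99.4, 82.5 and 142 at 1 dpf and 49.4 and 93.0 at 3 dpf. Section B held 116 and 104 CPM at 0 hpf, 116, 123 and 114 at 1 hpf, 120.5, 129.9 and 142 at 1 dpf and 117 and 132 at 3 dpf. The sections overlapped at 1 dpf and were separated at 1 hpf by less than 1 CPM. They did not overlap at 0 hpf or 3 dpf, and in each same-numbered pair section B was the higher. The fold changes were −0.38 ± 0.26 at 0 hpf (adjusted p = 0.649), −0.24 ± 0.21 at 1 hpf (adjusted p = 0.520) and −0.28 ± 0.21 at 1 dpf (adjusted p = 0.409), none of which passed. At 3 dpf it was −0.81 ± 0.26 (adjusted p = 0.0132), a call that depended on the scaling. Of 27 alternatives 21 kept it, but most of these left out a library of another stage and so left the compared libraries as they were. Among those that kept it were unscaled library sizes (−0.78, adjusted p = 0.0195) and the replicate block (−0.87, adjusted p = 0.00105). It was lost with RLE factors (−0.53, adjusted p = 0.0917), with factors from O. mykiss genes (−0.50, adjusted p = 0.111), in a fit of the 3 dpf libraries alone (−0.75, adjusted p = 0.123), with DESeq2 (−0.53, adjusted p = 0.0847), and without 3 dpf section A replicate 1 (−0.42, adjusted p = 0.206) or section B replicate 2 (−0.72, adjusted p = 0.0653).

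**Figure D2:**
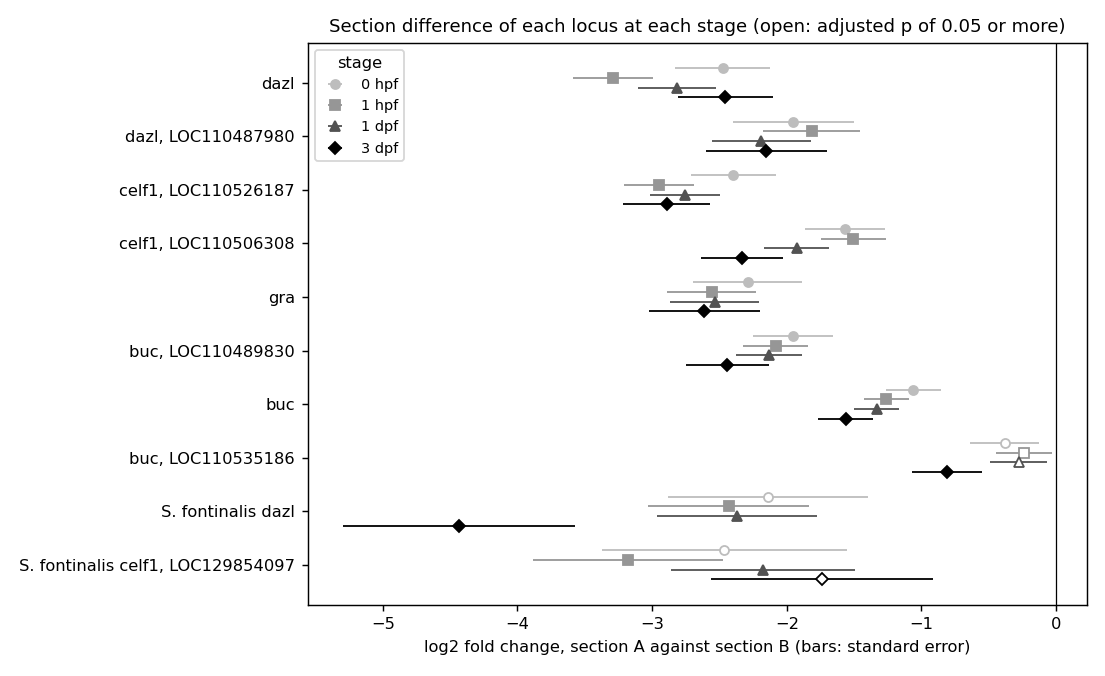
Log2 fold change of section A against section B (horizontal axis, bars are standard errors) for each of the 10 rows at each of the 4 stages; filled symbols passed an adjusted p of 0.05 and open symbols did not. Symbols of 7 O. mykiss loci lie between −1.06 and −3.29, those of LOC110535186 between −0.24 and −0.81, and the S. fontinalis rows have the widest bars.

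Set against all 22724 O. mykiss genes tested, every O. mykiss locus but LOC110535186 lay toward the low end of the section comparison. At 1 hpf 0.616% of the genes had a lower fold change than dazl, 1.01% than LOC110526187, 1.66% than gra, 2.94% than LOC110489830 and 4.03% than LOC110487980. LOC110506308 and buc followed, with 5.90% and 7.95% of the genes below them. The order was not the same at 3 dpf, where 1.17% of the genes lay below LOC110526187, 1.92% below gra, 2.47% below dazl and 11.5% below buc. LOC110535186 stood inside the bulk of the genes, with 38.3% below it at 1 hpf and 24.95% to 36.8% at the other stages.

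Loci that share a symbol can be compared within a library, because their ratio does not depend on library scaling. For each of the 5 pairs the log2 ratio of counts was averaged over stages in each section. The difference between sections was tested by an exact two-sided permutation of the section labels within stages, with 14400 assignments and 0.0001389 as the smallest possible p. All 5 pairs differed in how strongly their loci were vegetal. The 3 buc pairs share loci and are not independent of each other.

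The widest gap lay between buc loci. The log2 ratio of LOC110489830 to LOC110535186 was −1.77 to −0.87 (median −1.38) over the section A libraries and −0.07 to 0.70 (median 0.31) over the section B libraries. LOC110535186 thus had more counts than LOC110489830 in each animal library, and the opposite held in most vegetal libraries. The difference between sections was −1.70, a 3.25-fold change of the ratio (p = 0.0001389, adjusted over the 5 pairs 0.0001736, exact permutation), and 10 of 10 pairs of sections with the same stage and replicate number showed its direction. Against the row named buc, LOC110489830 was more vegetal by −0.86 (1.81-fold) and LOC110535186 less vegetal by 0.84 (1.79-fold), each with the same exact permutation p and in 10 of 10 such pairs.

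In celf1, the log2 ratio of LOC110506308 to LOC110526187 was 0.64 to 1.61 (median 1.24) in section A and −0.43 to 0.61 (median 0.29) in section B. LOC110526187 was therefore the more vegetal locus, by 0.92 (1.89-fold, exact permutation p = 0.0001389, adjusted 0.0001736), in 10 of 10 same-numbered pairs. By stage the gap was 0.85 (0 hpf), 1.505 (1 hpf), 0.80 (1 dpf) and 0.52 (3 dpf), and the sections did not overlap at any stage.

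In dazl, the log2 ratio of LOC110487980 to dazl was −1.31 to 0.22 (median −0.35) in section A and −1.88 to −0.77 (median −1.07) in section B. The row named dazl was the more vegetal by 0.76 (1.69-fold, exact permutation p = 0.003611, adjusted 0.003611), in 9 of 10 same-numbered pairs. The gap was widest at 1 hpf, at 1.54, and the sections overlapped at 0 hpf (0.64) and 3 dpf (0.25).

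**Figure D3:**
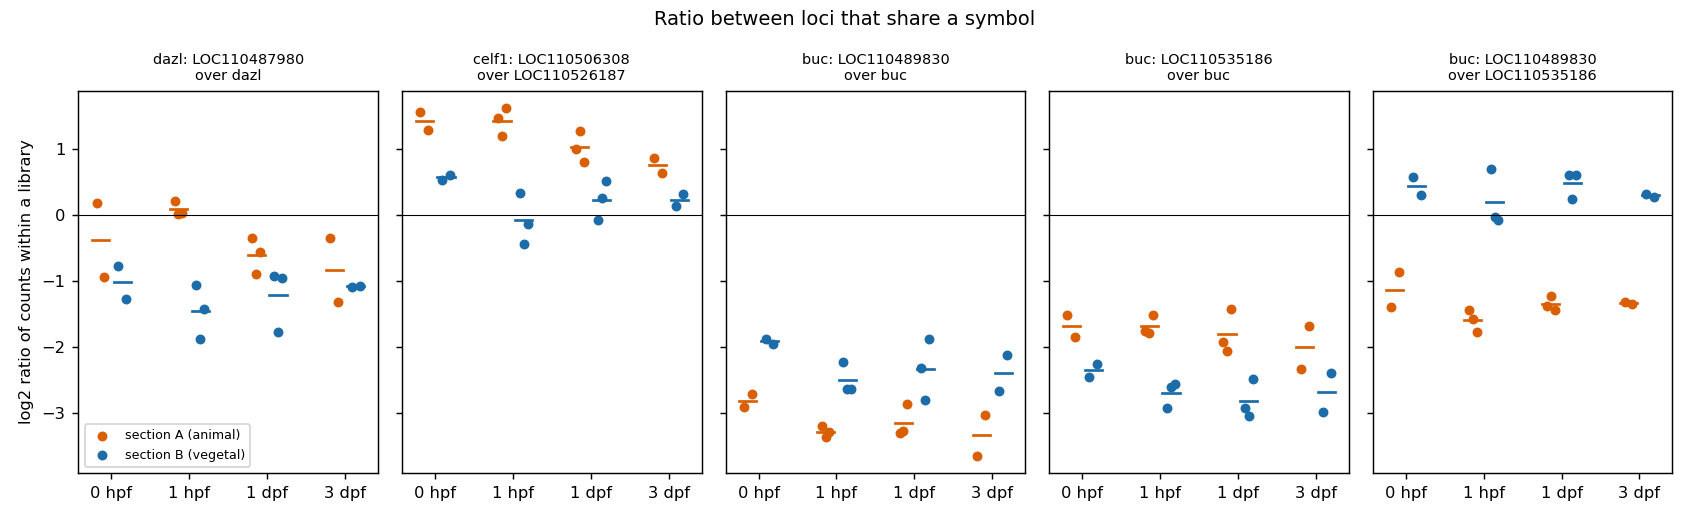
Log2 ratio of the counts of each pair of loci with 1 symbol (vertical axis) in each library, by stage; points are libraries (section A orange, section B blue) and short lines are group means. In the buc and celf1 panels the colours separate at every stage, and in the dazl panel they overlap at 0 hpf and 3 dpf.

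Few rows were called between stages. From 0 hpf to 1 hpf, 0 of the 10 rows were called in section A (0% of all genes) and 0 in section B (0.00308%). From 1 hpf to 1 dpf 0 were called in either section (0% in each), and from 1 dpf to 3 dpf 0 in section B (0%). At an unadjusted p under 0.05 edgeR had 0 and 4 rows in sections A and B for the first step, 1 and 0 for the second, and 0 in section B for the third. DESeq2 called 1 row in these contrasts, dazl in section B from 0 hpf to 1 hpf (0.96, adjusted p = 0.0449), where edgeR gave 0.94 ± 0.31 (adjusted p = 0.170). The shares of all genes at the unadjusted threshold and by DESeq2 are not given here.

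Over the whole series in section B, from 0 hpf to 3 dpf, edgeR called 0 rows (0.178% of all genes) and had 7 at an unadjusted p under 0.05. The share of all genes at that unadjusted threshold is not given here, nor is the share called by DESeq2. Whether 7 is more than among all genes was therefore not tested. The O. mykiss fold changes ran from 0.03 to 1.05 (median 0.73), against a median of −0.03 over all O. mykiss genes. dazl stood at 1.05 ± 0.33 (adjusted p = 0.210) and LOC110526187 at 0.97 ± 0.30 (adjusted p = 0.199), and DESeq2 called these 2 rows (1.10 and 1.01, adjusted p = 0.0333 and 0.0302). The vegetal level of 7 of the 8 O. mykiss loci was lowest at 0 hpf, in 2 libraries. The exception was LOC110489830, at 150 ± 31.4 CPM at 0 hpf (SD, n = 2) and 139 ± 42.8 at 1 hpf (SD, n = 3). For LOC110506308 the gap was within the spread, at 170 ± 48.4 CPM at 0 hpf (SD, n = 2) and 174 ± 56.1 at 1 hpf (SD, n = 3). The SDs also met for LOC110487980 (38.8 ± 17.8 and 55.9 ± 26.45 CPM), gra (92.8 ± 24.4 and 131 ± 39.3) and LOC110535186 (109.8 ± 8.24 and 117.9 ± 4.69). They did not meet for buc, dazl and LOC110526187. A lowest level at 0 hpf was not particular to these loci. In section B hwa and trim36 (LOC110525254) were also lowest then, at 37.4 and 802 CPM, beside 64.0 and 1463 at 1 hpf. How many of all genes were lowest at 0 hpf is not given here.

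In section A, dazl rose from 13.5 ± 5.62 CPM at 0 hpf (SD, n = 2) to 28.4 ± 2.03 at 3 dpf (SD, n = 2). In this contrast 33.3% of all genes were higher, most of them S. fontinalis genes. Of the 22724 O. mykiss genes tested, 2279 were higher. The dazl fold change was 1.07 ± 0.35 (adjusted p = 0.0176). This call was lost without 0 hpf section A replicate 1 (0.70, adjusted p = 0.205) or 3 dpf section A replicate 2 (1.00, adjusted p = 0.0700). The second row called was S. fontinalis LOC129854097 (2.41 ± 0.93, adjusted p = 0.0401), at 7 and 9 counts at 0 hpf and 37 and 9 at 3 dpf. It was lost with unscaled library sizes (2.22, adjusted p = 0.0510), without either 0 hpf section A replicate (2.23 and 2.60, adjusted p = 0.172 and 0.120) and without 3 dpf section A replicate 1 (1.19, adjusted p = 0.463).

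From 1 dpf to 3 dpf in section A, 1 row was lower, where 16.3% of all genes were. Of the 22724 O. mykiss genes tested, 5262 were lower, and of the S. fontinalis genes 24. LOC110535186 fell from 108 ± 30.5 CPM (SD, n = 3) to 71.2 ± 30.8 (SD, n = 2), a fold change of −0.60 ± 0.24 (adjusted p = 0.0437). The median over all O. mykiss genes in this contrast was −0.33, and with factors from O. mykiss genes the locus stood at −0.29 (adjusted p = 0.335). RLE factors and DESeq2 gave −0.32 each (adjusted p = 0.292 and 0.278). The call was also lost on leaving out 1 of 11 libraries, among them 3 dpf section A replicate 1 (−0.21, adjusted p = 0.532) and 1 dpf section A replicate 3 (−0.36, adjusted p = 0.222).

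The section difference itself was not called to change for any row. Between 0 hpf and 1 hpf and between 1 hpf and 1 dpf 0 of 10 rows were called (0% of all genes each), and 0 were called between 1 dpf and 3 dpf (20.4%) and between 0 hpf and 3 dpf (17.5%). Of the 22724 O. mykiss genes tested, 2470 had a lower and 1072 a higher difference between 1 dpf and 3 dpf. Between 0 hpf and 3 dpf these were 1879 and 1021. At an unadjusted p under 0.05 edgeR had 0 rows in each of these 4 contrasts, and DESeq2 called 0. The shares of all genes at the unadjusted threshold and by DESeq2 are not given here. For the O. mykiss loci the change from 0 hpf to 3 dpf ran from −0.76 ± 0.41 (LOC110506308, adjusted p = 0.233) to 0.02 ± 0.46 (dazl, adjusted p = 1.00). Over all O. mykiss genes tested the median of this change was −0.28. With factors from O. mykiss genes the loci ran from −0.47 (LOC110506308) to 0.31 (dazl). In the main fit the largest change was that of S. fontinalis dazl, at −2.30 ± 1.13 (adjusted p = 0.181).

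The paternal rows had few counts and were found in the egg as well. S. fontinalis dazl had 4 and 16 counts at 0 hpf in the animal libraries and 45 and 37 in the vegetal ones. Its section A libraries ran from 0.186 to 2.63 CPM (median 1.30) and its section B libraries from 3.52 to 18.04 CPM (median 7.80). The counts on this row were thus higher on the vegetal side, as were those of O. mykiss dazl. How many of them came from O. mykiss RNA was not tested, so the section difference may not be that of a paternal RNA. The fold changes were −2.14 ± 0.74 at 0 hpf (adjusted p = 0.152), −2.43 ± 0.60 at 1 hpf (adjusted p = 0.00706), −2.37 ± 0.59 at 1 dpf (adjusted p = 0.00695) and −4.44 ± 0.86 at 3 dpf (adjusted p = 0.000427).

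At 3 dpf, when most S. fontinalis genes were higher in section A (8437 called so, and 74 the other way), S. fontinalis dazl was among the lower ones. It had 1 and 5 counts in the section A libraries and 99 and 52 in the section B libraries. In section A this was 1 of 260 dazl counts, or 0.385% (95% Clopper-Pearson interval 0.00974% to 2.12%), and 5 of 204, or 2.45% (0.801% to 5.63%). The whole libraries stood at 24.03% and 22.45%. At earlier stages the dazl share in section A had been 1.97% to 6.45%, and in section B it was 2.48% to 4.84% before 3 dpf and 4.86% and 5.86% at 3 dpf. The dazl share was thus far under the library's share in animal embryos at 3 dpf, and above it in each other library. Its total includes both O. mykiss dazl loci beside a single S. fontinalis row, and the celf1 share is built in the same way. A share over all genes is therefore not a like measure.

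S. fontinalis LOC129854097, the paternal celf1 row, had 7 to 42 counts in section A and 20 to 168 in section B. How many of these came from O. mykiss RNA was not tested for this row either. Its fold changes were −2.46 ± 0.91 (adjusted p = 0.186), −3.18 ± 0.71 (adjusted p = 0.0032), −2.18 ± 0.68 (adjusted p = 0.0281) and −1.74 ± 0.83 (adjusted p = 0.0827) from 0 hpf to 3 dpf. At 3 dpf the sections overlapped, with 6.87 CPM as the highest section A and 3.33 as the lowest section B value, and without section B replicate 1 the direction turned (0.41, adjusted p = 0.737). The 1 dpf call was lost without section A replicate 1 or 3 (−1.92 and −1.89, adjusted p = 0.113 and 0.105) or section B replicate 1 or 2 (−1.85 and −1.94, adjusted p = 0.107 and 0.0904). Its share of celf1 counts in section A at 3 dpf was 6.57% (37 of 563, Clopper-Pearson interval 4.67% to 8.95%) and 2.76% (9 of 326, 1.27% to 5.18%), again under the library's share. At earlier stages it was 0.933% to 4.66% in section A, and over section B libraries of all stages 0.830% to 5.41%. The intervals cover counting error only.

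**Figure D4:**
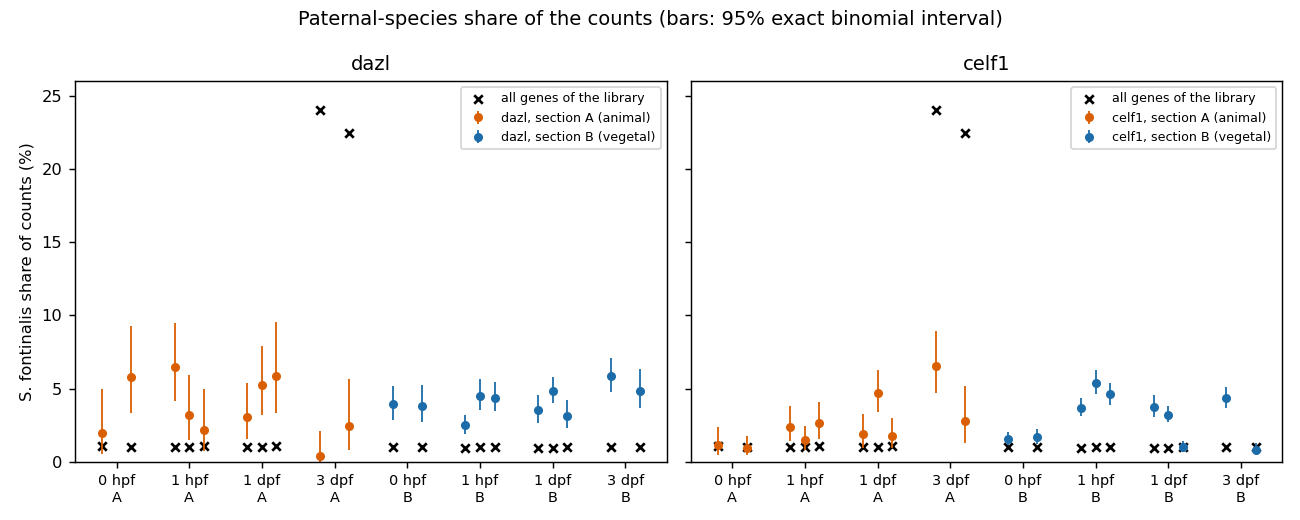
Percent of dazl counts (left) and celf1 counts (right) on S. fontinalis rows in each library, by stage and section, with 95% exact binomial intervals; crosses give the share of all counts of that library. In section A at 3 dpf the crosses stand at 24.03% and 22.45% and the dazl points at 0.385% and 2.45%.

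Other genes known from germ plasm did not share one side. Of 35 other O. mykiss rows for 26 of 32 germ plasm symbols, those higher and lower on the animal side numbered 1 and 3 (0 hpf), 9 and 6 (1 hpf), 7 and 6 (1 dpf) and 6 and 12 (3 dpf), with medians of 0.19, 0.12, 0.00 and 0.07. Of all O. mykiss genes tested, 1.45% were higher and 3.96% lower (0 hpf), 12.5% and 11.8% (1 hpf), 14.3% and 13.8% (1 dpf) and 15.2% and 27.1% (3 dpf), with medians of −0.02, −0.03, −0.01 and −0.33. These shares also stand behind the next 2 lists. camk2g2 (LOC110491356), a calcium/calmodulin-dependent kinase gene, and hook2, of a family of motor adaptors, were lower at all 4 stages, by means of −2.70 and −1.77. At 0 hpf hook2 stood at 57.5 ± 4.61 CPM on the animal and 142 ± 14.8 on the vegetal side (SD, n = 2 each). Of the helicase gene ddx4 and tdrd6, a Tudor domain protein gene that acts with Buc in zebrafish germ plasm, the first was lower and the second higher from 1 hpf on. The ddx4 fold changes were −0.53 (not called), −1.09, −1.14 and −1.38 from 0 hpf to 3 dpf, and those of tdrd6 were 1.37 (not called), 2.34, 2.55 and 2.42. ddx4 and tdrd6 were picked after their values were seen, the others by the rule for named genes.

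A list of other vegetally localized RNAs held the most vegetal of the genes named from the lists. Of 37 O. mykiss rows for 21 of 26 symbols, 0 were higher and 11 lower (0 hpf), 3 and 15 (1 hpf), 1 and 18 (1 dpf) and 6 and 16 (3 dpf), with medians of −0.42, −0.59, −0.82 and −0.76. Over all O. mykiss genes 3.96%, 11.8%, 13.8% and 27.1% were lower, and 15.2% were higher at 3 dpf. Mean fold changes over the stages were −4.17 for hwa, a dorsal determinant of zebrafish, −4.12 for LOC110492486 (grip2a or grip2b), −4.05 for trim36 (LOC110525254) and −3.60 for a second hwa row (LOC110509564). sybu (LOC110518767 and LOC110489853), a kinesin linker gene, stood at −3.23 and −2.86, a second trim36 row (LOC110535019) at −2.62 and rtn3 (LOC110531852) at −2.08. Whether these genes differ from dazl in their section difference was not tested.

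RNA-binding protein genes related to dazl and celf1 were mixed. Of 22 O. mykiss rows for 17 of 25 symbols, 1 was higher and 2 lower (0 hpf), 4 and 5 (1 hpf), 4 and 7 (1 dpf) and 3 and 10 (3 dpf), with medians of −0.19, 0.01, −0.17 and −0.49. Over all O. mykiss genes 12.5% were higher and 11.8% lower at 1 hpf and 15.2% and 27.1% at 3 dpf, where the median was −0.33. The 2 rows of celf2, the closest relative of celf1 in the list, were lower at all 4 stages, with means of −2.35 (LOC110524948) and −1.73 (LOC110500292). pum2, a translational repressor gene, was higher at all 4, with a mean of 0.88. At 0 hpf it stood at 249 ± 21.3 CPM on the animal and 119.9 ± 46.1 on the vegetal side (SD, n = 2 each).

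Across the 20 libraries the levels of the vegetal loci varied together, which is given as a description, since the points share sections, stages and libraries. Pearson's r of log2 CPM was 0.984 between LOC110526187 and gra, 0.981 between dazl and gra and 0.980 between dazl and LOC110526187. The row buc correlated with LOC110489830 at 0.939, and LOC110535186 correlated with dazl at 0.520. Among 11199 other O. mykiss genes with a symbol, those most like dazl were raver1 (LOC110538426, 0.993), dazap2 (LOC110492102, 0.992) and ralgps2 (LOC110521611, 0.992). Those most like LOC110526187 were rundc3b (0.995), trim36 (LOC110535019, 0.995) and esco1 (LOC110535635, 0.994), and those most like gra were socs2 (LOC100272211, 0.991), cdc42ep4b (0.990) and rmnd1 (0.990). For buc they were spata2 (LOC110508398), arhgap28 (LOC110535262) and ncaph2, each at 0.985, and for LOC110489830 ELF1 (LOC110508153, 0.982), klhl28 (LOC110505464, 0.981) and neu1 (LOC110496100, 0.980). For LOC110506308 they were zgc:123010, ctdnep1a (LOC110534220) and sufu (LOC110502244), each at 0.984, and for LOC110487980 LOC110500962 (prc1a or prc1b, 0.980), tspan37 (0.974) and hsd17b12a (0.974). LOC110535186 had no gene as close: the highest were lactb (0.945), phactr3a (LOC110532228, 0.897) and LOC110501646 (0.891).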

How the data were processed

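The authors deposited raw counts per gene, used here for 20 of the 24 labelled libraries; replicate 3 of both sections at 0 hpf and 3 dpf was not analysed here. The submitters' processing notes name HTSeq 2.0.4, STAR 2.7.11, fastp 0.23.4 and DESeq2 without their roles. Genome build, counting strand and the handling of shared reads are not given in the sources used here. The deposited normalized tables were not used, and no coordinates or sequences are given. All 8 O. mykiss members were found in the RefSeq gene table as protein coding.

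The main test was edgeR 4.0.16 (R 4.3.3), quasi-likelihood, with TMM factors, its expression filter, 1 mean per stage and section and Benjamini-Hochberg adjustment over 32502 genes (threshold 0.05). CPM uses the same factors, except for the tissue markers, which were scaled by library totals alone. The spread was pooled over all 20 libraries, so p-values reflect the spread among these libraries. Locus ratios used a pseudocount of 0.5 and exact permutation. Paternal shares have 95% exact binomial intervals. DESeq2 1.42.0, other factors, no filter, the compared libraries alone, a replicate block and each library left out were alternatives. The labels give both sections of a stage the same replicate numbers but do not state that a number marks 1 egg, so numbers were not taken to pair sections. Of the tests, only the edgeR fit was run on simulated counts, for section A against section B at 1 hpf. No replicate pair agreed within counting noise (chi-square per degree of freedom 3.71 to 28.7).

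Named list genes were called at all 4 stages in 1 direction (up to 8 per list); like genes are the 3 with the highest r, at or above median expression. The members and lists were chosen with earlier results of these data known.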

Additional observations from a re-analysis of the deposited data

How the results depend on the processing

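Of 1080 alternative values for the 40 section differences, 1053 kept direction and side of the threshold, 18 lost the call, 8 gained it and 1 reversed: S. fontinalis LOC129854097 at 3 dpf without section B replicate 1 (0.41, adjusted p = 0.737; range on leaving out 1 library −2.955 to 0.41). Most of the 1080 values came from leaving out a library of a stage other than the one compared. Such runs leave the compared libraries as they were, so their agreement was largely fixed in advance. The 5 locus-pair differences kept their calls under every alternative run. Leaving out 1 library gave 3 to 7 called rows at 0 hpf (7 in full; 3 without section A replicate 1, 4 without section B replicate 1), 0 to 3 from 1 dpf to 3 dpf in section A (1 in full), 0 to 3 from 0 hpf to 3 dpf in section A (2 in full), and 0 to 1 for the change of the section difference from 1 dpf to 3 dpf (0 in full; 1 without section A replicate 2). From 1 dpf to 3 dpf in section A RLE factors, O. mykiss factors and DESeq2 gave 0 and unscaled library sizes 3, and from 0 hpf to 3 dpf library sizes gave 1. In section B, DESeq2 gave 1 row from 0 hpf to 1 hpf and 2 from 0 hpf to 3 dpf. The causes were not tested. Same-numbered sections deviated together at r = −0.03 at 0 hpf and 0.311 to 0.686 at the other stages, and 12 of 12 libraries of 1 hpf and 1 dpf correlated best with their own number, a hint of pairing from the data and not from the design. With the number as a replicate block, 3 section calls changed, all gained: S. fontinalis LOC129854097 at 0 hpf (−2.45) and 3 dpf (−1.55) and S. fontinalis dazl at 0 hpf (−2.18). An exact sign-flip test of the paired locus ratios gave p = 0.003906 for dazl and p = 0.001953, the smallest it can give, for the other 4 pairs. The block could not be fitted for stages. Scaling each species by its own total moved the paternal share in section A at 3 dpf to 4.60% (dazl) and 13.6% (celf1). On that scale the totals of both species weigh the same, so these values are not to be set against the library's share. Leaving out 1 of 2 libraries assumes that the lone one varies like the other groups. Groups of 2 libraries and at most 42 counts per paternal row in section A limit the precision.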

Other observations

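S. fontinalis LOC129854097 (celf1) fell into separate levels within section B. It stood at 5.40 and 3.81 CPM in the 0 hpf replicates, 3.85 in 1 dpf replicate 3 and 3.33 in 3 dpf replicate 2, and at 14.8 to 26.2 in the other 6 libraries. In 1 dpf replicate 3 the O. mykiss locus LOC110506308 held 224 CPM, beside 228 and 272 in the other replicates of that group, and LOC110526187 held 157, beside 239.7 and 228. In 3 dpf replicate 2 they held 221 and 177 CPM, beside 301 and 274 in replicate 1. How many counts on the S. fontinalis row came from O. mykiss RNA was not tested.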
